A study of Mus musculus with 31 samples.

Results

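The genes described here encode the nuclear subunits of the mitochondrial respiratory chain and of ATP synthase, measured in mouse liver. They were taken by name from the array annotation: symbols that begin with Nduf (without the Ndufaf assembly factors), Uqcr, Atp5 or Cox followed by a digit between 4 and 8, and Sdha to Sdhd. This gave 80 of 17097 genes, of which 35 carry a complex I name, 4 a complex II name, 7 a complex III name, 17 a complex IV name and 17 an ATP synthase name. Each gene was represented by its probe set with the highest mean over all arrays. A name is not always a role: Ndufs5-ps is listed by RefSeq as a transcribed pseudogene, Ndufa4 encodes a protein now counted with complex IV, and Cox7a2l encodes a factor that joins complexes III and IV into supercomplexes. Several other subunits, among them those encoded in mitochondrial DNA, were not analysed here.

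The livers came from male mice in the fed state or after an injection, and each array of a group is labelled a biological replicate. Xbp1 ko mice (n = 4) were set against WT littermates (n = 4), all c57BL/6 and 14 weeks old. Xbp1 ko mice of the same strain, 9 weeks old, were sampled 8 days after injection of siRNA, with 4 arrays labelled IRE1 siRNA and 4 labelled luciferase siRNA, so that both of these groups carry the Xbp1 ko. Ire1 ko mice were labelled as of mixed strain and 14 weeks old, and were sampled 6 h after 2 mg/kg tunicamycin (n = 4) or untreated (n = 3). WT mice of 14 weeks, labelled c57BL/6, had the same tunicamycin dose (n = 4) or none (n = 4), and the untreated ones were also labelled littermates of the Ire1 ko mice. Where these labels are right, the Ire1 genotype and the strain cannot be told apart. The labels do not say how either gene was deleted or in which cells. Tunicamycin blocks N-glycosylation and so loads the endoplasmic reticulum with unfolded proteins. XBP1 is a transcription factor of the response to that load, and IRE1, encoded by Ern1, is the sensor whose RNase activity starts the splicing of Xbp1 mRNA and also cuts certain other transcripts. The study looked for mRNAs cleaved through IRE1 and for genes controlled by XBP1.

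The values are linear probe set intensities given as whole numbers. Of 45037 probe sets, 19.8% to 23% reached an intensity of 16 on an array, and 66.2% of all values were 6 or less. Within groups, arrays correlated between 0.9841 and 0.9934 over all probe sets on the log2 scale. Xbp1 averaged 470 ± 80.3 in Xbp1 ko livers and 943.8 ± 140 in WT littermates (SD, n = 4 each). Ern1 lay between 169 and 236 on the arrays labelled IRE1 siRNA and between 18 and 35 on those labelled luciferase siRNA, which goes against these labels, so directions in that comparison hold only as labelled. In untreated livers Ern1 lay between 148 and 153 in Ire1 ko and between 121 and 203 in WT, and a probe set outside a deleted part would not check the deletion. All 13 hepatocyte markers of the list used were on the array, with a summed intensity between 52888 and 65763 on every array, while 5 cholangiocyte markers summed to at most 28 and 8 lymphocyte markers to at most 47.

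Electrons from NADH enter the chain through complex I and electrons from succinate through complex II. Both pass them by way of ubiquinone to complex III, cytochrome c and complex IV, where oxygen is reduced. Complexes I, III and IV pump protons across the inner mitochondrial membrane, and ATP synthase uses the returning protons to make ATP. Hepatocytes are rich in mitochondria and draw on this ATP for gluconeogenesis, urea synthesis and secretion. Transcription of the nuclear genes is known to depend on NRF1, GABPA (also called NRF2), YY1, estrogen-related receptors and their PGC-1 coactivators.

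Most of these genes were bright in liver. Of the 80, 71 had a mean intensity over all 31 arrays (taken on the log2 scale) of 200 or more, with means between 267 and 3530. The other 9 averaged below 16: Cox4i2, Cox6a2, Cox6b2, Cox7a1, Cox7b2, Cox8b, Cox8c, Ndufa4l2 and Sdhd. By complex, the brightest probe sets were those of Ndufb11 (mean 1458) and Ndufb9 (1456), Sdhb (1252) and Sdha (1156), Uqcrc2 (1177) and Uqcrfs1 (1132), Cox6a1 (3530) and Cox5b (1834), and Atp5g3 (2374) and Atp5b (1940). The dimmest were Ndufa4l2 (4.74), Sdhd (14.5), Uqcrb (364), Cox7b2 (4) and Atp5mpl (385). These are readings of different probe sets and are not set against each other as amounts of mRNA. Sdhd, which encodes a membrane anchor of complex II, had 1 probe set, and it lay between 6 and 26 on all arrays, so its values are close to the floor.

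The largest change in these genes came with tunicamycin. No group of the Ire1 experiment is labelled as given vehicle alone, so the drug and the act of giving it cannot be told apart. In WT liver 6 h after the drug, 64 of 79 tested members were lower than in untreated WT liver and 3 were higher (limma, adjusted p under 0.05). Complex I (31 of 35 lower), complex II (4 of 4), complex III (5 of 7) and ATP synthase (16 of 17) fell together, while complex IV showed 8 lower and 2 higher of 16. Most of the members near the floor carry a complex IV name. Cox7b2 did not pass the filter on dim probe sets, and neither it nor Cox4i2 did in the Xbp1 ko and siRNA comparisons. Over all genes tested, 36.2% were called in this comparison and 17.7% were called lower. Bright genes were called more often: among genes with a mean of 200 or more, a subset chosen after seeing the data, 47% were lower, against 85.9% (61 of 71) of the members this bright. The median log2 fold change was -0.39 for the members and -0.02 for all genes tested; among those of 200 or more it was -0.40 for the members and -0.22 for all genes. In bulk liver, fewer cells of a type and less RNA per cell cannot be told apart.

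**Figure D1:**
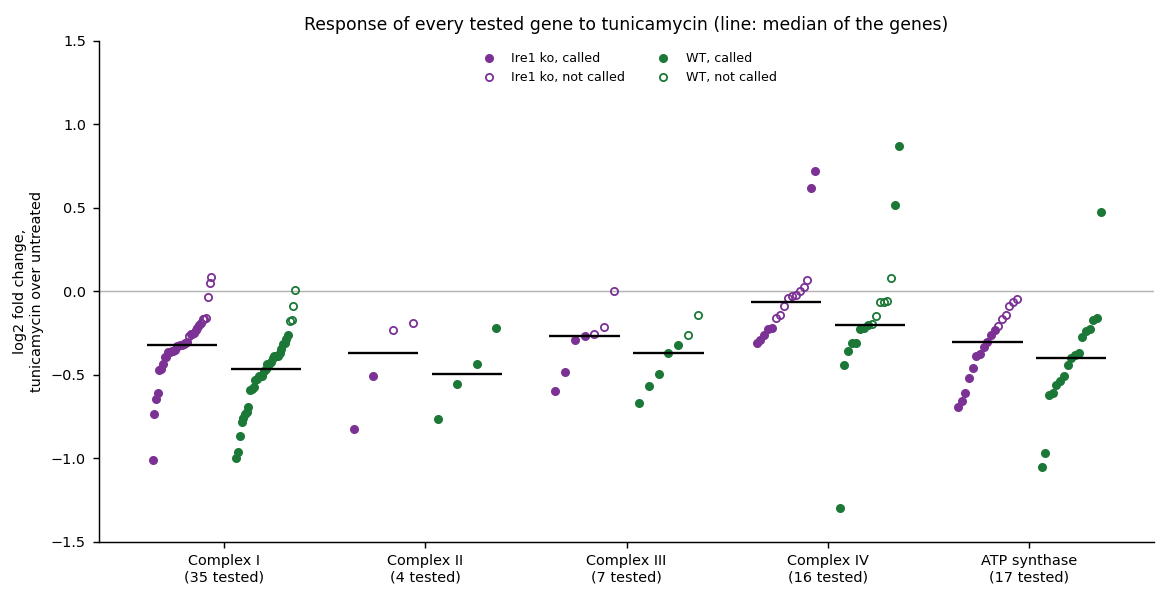
Log2 fold change of every tested gene, tunicamycin over untreated (vertical axis), by complex, in Ire1 ko (purple, left) and WT (green, right). Each point is a gene, filled where limma called it at an adjusted p under 0.05, and lines are medians over the genes. The medians lie at -0.32 in Ire1 ko and -0.46 in WT for complex I, and at -0.07 in Ire1 ko and -0.20 in WT for complex IV. The complex IV medians take in several genes near the floor.

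Complex I holds a flavoprotein end that oxidises NADH, iron-sulfur subunits and many accessory subunits. Its median log2 fold change with tunicamycin in WT was -0.46. Ndufb3, a small membrane accessory subunit, read 282, 211, 245 and 195 after tunicamycin and 437, 475, 435 and 451 in untreated WT livers. The groups did not overlap, and the log2 fold change was -0.96 (SE 0.13; limma adjusted p = 1.65e-05). Ndufs5-ps read 303, 256, 189 and 157 after tunicamycin and 381, 574, 420 and 399 untreated. Its groups did not overlap either, with a log2 fold change of -0.998 (SE 0.21; adjusted p = 0.00113, limma), and its other probe set gave -0.50. Whether these probes also bind the mRNA of the parent gene Ndufs5 was not tested. Ndufa9, an accessory subunit at the junction of the peripheral and membrane arms, had a log2 fold change of -0.87 (SE 0.09; limma adjusted p = 4.95e-07), and Ndufb10, a membrane-arm subunit, had -0.78. Ndufa5 (-0.76), Ndufb8 (-0.74), Ndufa3 (-0.72) and Ndufs7 (-0.69), the last an iron-sulfur subunit, were also lower. The core subunits Ndufs1, Ndufv1, Ndufv2, Ndufs3 and Ndufs8 were all called lower, with log2 fold changes between -0.46 (Ndufs1) and -0.32 (Ndufs3). Ndufa2, Ndufa8, Ndufab1 and Ndufb11 were the 4 complex I members not called, and their log2 fold changes lay between -0.18 (Ndufa8) and 0.01 (Ndufb11).

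In complex II, Sdhc, the other membrane anchor, read 396, 420, 414 and 419 after tunicamycin and 599, 601, 629 and 591 untreated. Every treated array was below every untreated one, with a log2 fold change of -0.55 (SE 0.07; limma adjusted p = 7.39e-06). The flavoprotein Sdha was lower at -0.44 and the iron-sulfur subunit Sdhb at -0.22 on the log2 scale. Sdhd averaged 9 ± 2.16 and 15 ± 1.41 (SD, n = 4 each), a log2 fold change of -0.77 near the floor. In complex III the log2 fold change was -0.67 (SE 0.08) for Uqcr11, -0.57 (SE 0.07) for Uqcrq and -0.50 (SE 0.08) for Uqcr10, all small subunits and all called lower. Uqcrfs1, the Rieske iron-sulfur protein, was lower at -0.37, and the core protein Uqcrc1 at -0.32 with overlapping groups. Uqcrc2, the other core protein, and Uqcrb, a small subunit which helps to bind ubiquinone, were not called, at -0.14 and -0.26.

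Complex IV moved least, with a median of -0.20. Its called decreases among bright genes lay between -0.44 (Cox6b1) and -0.20 (Cox5b), and took in Cox4i1, Cox5a, Cox6c, Cox7a2 and Cox8a. Cox6a1, the brightest probe set of all members, averaged 3508 ± 86.4 after tunicamycin and 3660 ± 208 untreated (SD, n = 4 each), a log2 fold change of -0.06 that was not called. Cox7c (-0.20, limma adjusted p = 0.0633) was not called either. The lowest fold change of all members was that of the dim Cox6b2, known as the testis isoform, at 5 to 10 after tunicamycin and 12 to 26 untreated, a log2 fold change of -1.30 (SE 0.34) close to the floor.

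Within ATP synthase, Atp5k, which encodes subunit e of the membrane part, read 433, 347, 361 and 481 after tunicamycin and 908, 858, 767 and 807 in untreated WT livers. Treated arrays lay far below untreated ones, and the log2 fold change of -1.05 (SE 0.10; limma adjusted p = 2.34e-07) was the lowest of any bright member. A second probe set of Atp5k gave -1.01. Atp5o, the stalk subunit that confers oligomycin sensitivity, read 370, 305, 323 and 362 after tunicamycin and 614, 662, 691 and 691 untreated. Again no array of one group reached the other, with a log2 fold change of -0.97 (SE 0.08; limma adjusted p = 4.21e-08). Atp5e and Atp5d, small subunits of the central stalk, were lower at -0.62 and -0.53, and Atp5j2, subunit f, at -0.61 on the log2 scale. Of the catalytic head, Atp5a1 (alpha) was at -0.40 and Atp5b (beta) at -0.18, both called lower.

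Promoter sequences of the genes that carry these changes are shown next, as 300 bases per gene (250 before to 50 after the annotated start, RefSeq on GRCm38.p6), written 5′ to 3′ on the gene's strand. Atp5k, Atp5o, Ndufa9 and Atp5d fell with tunicamycin, the last 3 of these were also called in at least 1 comparison without tunicamycin, and Cox7a2l and Atp5g1 rose with tunicamycin in WT. Atp5d has 2 windows in the table, of which 1 is shown. Capitals mark matches to the motifs searched.
Atp5k, chr5:108434350-108434649, minus strand: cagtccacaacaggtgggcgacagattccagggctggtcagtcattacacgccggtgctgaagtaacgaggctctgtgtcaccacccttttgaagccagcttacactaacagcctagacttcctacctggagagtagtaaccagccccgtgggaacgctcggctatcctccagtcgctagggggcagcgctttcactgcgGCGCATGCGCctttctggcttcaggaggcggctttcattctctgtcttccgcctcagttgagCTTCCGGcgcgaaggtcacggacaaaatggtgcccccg
Atp5o, chr16:91931581-91931880, minus strand: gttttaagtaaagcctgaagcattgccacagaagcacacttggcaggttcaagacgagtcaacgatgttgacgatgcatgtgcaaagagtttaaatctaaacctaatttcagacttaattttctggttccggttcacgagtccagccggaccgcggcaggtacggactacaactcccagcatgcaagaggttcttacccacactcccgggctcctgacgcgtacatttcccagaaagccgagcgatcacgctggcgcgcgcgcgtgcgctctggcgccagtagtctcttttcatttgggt
Ndufa9, chr6:126849095-126849394, minus strand: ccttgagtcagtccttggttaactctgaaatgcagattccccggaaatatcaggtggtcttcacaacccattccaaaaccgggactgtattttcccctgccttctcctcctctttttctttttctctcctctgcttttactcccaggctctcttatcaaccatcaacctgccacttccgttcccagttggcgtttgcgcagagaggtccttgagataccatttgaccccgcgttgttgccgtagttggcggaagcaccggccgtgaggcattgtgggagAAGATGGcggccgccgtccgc
Atp5d, chr10:80142025-80142324, plus strand: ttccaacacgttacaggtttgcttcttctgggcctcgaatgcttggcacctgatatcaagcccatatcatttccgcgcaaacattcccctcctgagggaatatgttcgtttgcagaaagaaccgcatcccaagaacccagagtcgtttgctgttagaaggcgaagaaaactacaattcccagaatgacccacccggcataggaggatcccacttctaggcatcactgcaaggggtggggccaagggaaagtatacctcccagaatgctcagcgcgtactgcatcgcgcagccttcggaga
Cox7a2l, chr17:83514284-83514583, minus strand: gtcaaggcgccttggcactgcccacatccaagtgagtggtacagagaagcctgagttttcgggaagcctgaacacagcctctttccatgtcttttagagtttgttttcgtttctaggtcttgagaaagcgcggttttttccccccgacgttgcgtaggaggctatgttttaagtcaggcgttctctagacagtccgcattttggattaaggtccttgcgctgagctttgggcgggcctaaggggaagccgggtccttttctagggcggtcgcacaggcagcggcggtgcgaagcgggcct
Atp5g1, chr11:96075582-96075881, minus strand: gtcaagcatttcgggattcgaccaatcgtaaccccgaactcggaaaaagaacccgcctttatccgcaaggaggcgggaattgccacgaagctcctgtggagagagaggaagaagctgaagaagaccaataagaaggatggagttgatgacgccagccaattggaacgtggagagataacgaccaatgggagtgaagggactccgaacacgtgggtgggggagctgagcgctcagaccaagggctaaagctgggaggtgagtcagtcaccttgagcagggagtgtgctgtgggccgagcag

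Of the 80 members, 64 matched a promoter in that table. Exact matches were searched on both strands for 7 motifs, and several matches can overlap, as the NRF1 matches on both strands of the palindrome-like run in Atp5k do. The NRF1 motif GCGCATGC stood in 10 of the 64 (15.6%), against 3.05% of 27025 genes with a promoter in the table. The GABPA motif CCGGAAG stood in 15 (23.4%, against 9.93%), the YY1 motif AAGATGG in 11 (17.2%, against 7.28%) and the estrogen-related receptor motif TCAAGGTCA in 2 (3.12%, against 0.466%). Atp5k holds the NRF1 and GABPA letters, Ndufa9 the YY1 letters just after its start, and the other 4 windows shown hold none of the 7. The ATF4-CHOP motif TGATGCAA stood in 0 members (1.03% of all genes), the XBP1-type element TGACGTGG in 0 (0.714%), and the endoplasmic reticulum stress element (CCAAT, any 9 bases, CCACG) in 0 (0.137%). A match is a run of letters and not a measured binding site.

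A few genes went the other way. Cox7a2l, the supercomplex factor, read 534, 478, 474 and 391 in WT livers after tunicamycin and 312, 346, 316 and 330 untreated. In Ire1 ko livers it read 496, 450, 505 and 473 after tunicamycin and 325, 293 and 323 untreated. Treated arrays were above untreated ones without overlap in both genotypes, with log2 fold changes of 0.62 (SE 0.10; limma adjusted p = 0.000134) in Ire1 ko and 0.52 (SE 0.09; limma adjusted p = 0.000192) in WT. Its 3 probe sets gave values between 0.55 and 0.64 in Ire1 ko and between 0.43 and 0.52 in WT. Atp5g1, 1 of 3 genes for the same proton-carrying c subunit of ATP synthase, read 1294, 1298, 1219 and 1154 in WT livers after tunicamycin and 858, 881, 881 and 953 untreated. The treated WT arrays stood above all others of the experiment. The log2 fold change in WT was 0.47 (SE 0.07; limma adjusted p = 2.19e-05), while the other c subunit genes were lower in WT, Atp5g2 at -0.27 and Atp5g3 at -0.16. In Ire1 ko livers Atp5g1 read 881, 811, 889 and 813 after tunicamycin and 876, 1004 and 926 untreated, with overlapping groups and a log2 fold change of -0.14 (limma adjusted p = 0.178). With arrays scaled to the same median of their brighter probe sets this value was -0.32 and called lower (limma adjusted p = 0.0139). The dim Cox6a2, the heart and muscle isoform, was called higher in both genotypes, at 8 to 12 after tunicamycin and 6 untreated in Ire1 ko and at 8 to 14 and 5 to 6 in WT. The summed intensity of 7 muscle markers lay between 31 and 38 on every array, which is the floor.

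**Figure D2:**
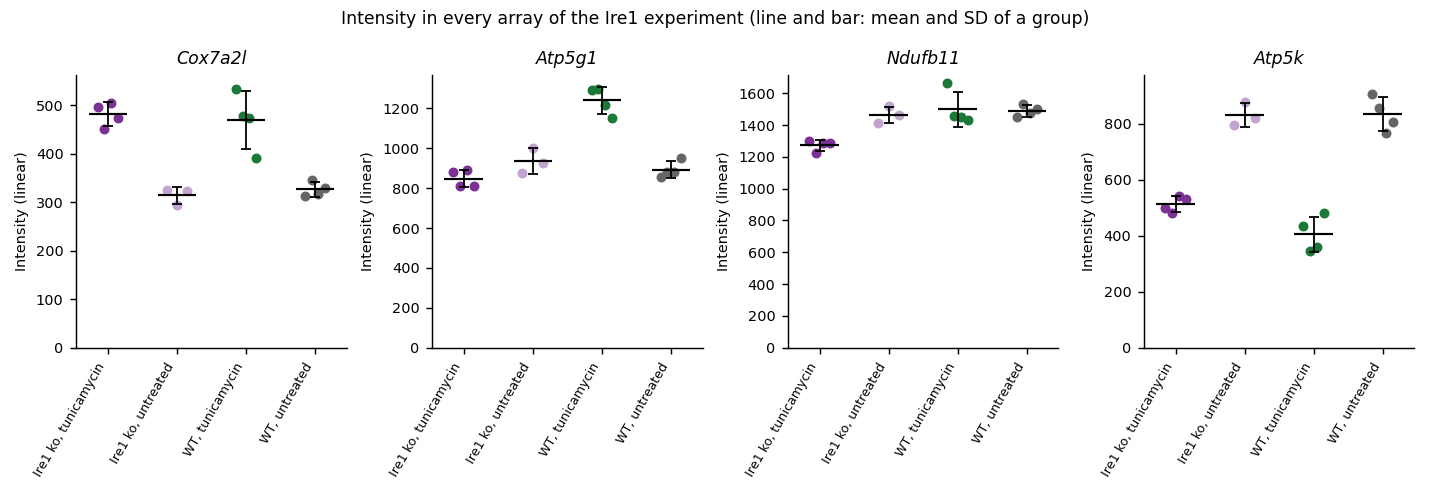
Linear intensity (vertical axes, from 0) of Cox7a2l, Atp5g1, Ndufb11 and Atp5k on every array of the Ire1 experiment, with the mean and SD of each group as line and bar. Cox7a2l is higher after tunicamycin in both genotypes, Atp5g1 is higher in WT (1241 ± 68.6 against 893.2 ± 41.3), Ndufb11 is lowest in Ire1 ko after tunicamycin (1274 ± 34.4), and Atp5k is lower after tunicamycin in both.

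In Ire1 ko liver, 46 of 79 members were lower after tunicamycin than untreated and 2 were higher. Of all genes tested, 27.7% were called and 10.3% were called lower. Among genes of 200 or more 35.7% were lower, against 63.4% of the members this bright. The median log2 fold change was -0.26 for the members and 0.00 for all genes tested. Among those of 200 or more it was -0.29 for the members and -0.13 for all genes. Atp5k read 498, 482, 543 and 530 after tunicamycin and 795, 879 and 819 untreated. Atp5o read 456, 466, 464 and 510 after tunicamycin and 725, 782 and 734 untreated. Both were lower on every treated array, Atp5k by a log2 fold change of -0.70 (SE 0.11; limma adjusted p = 9.46e-05) and Atp5o by -0.66 (SE 0.08; limma adjusted p = 1.72e-05). Ndufs5-ps (-1.01), Sdhd (-0.83, near the floor), Ndufb3 (-0.74), Ndufa3 (-0.65), Ndufv3 (-0.61) and Atp5mpl (-0.61), a small ATP synthase-associated protein, were the other members with the lowest fold changes. The call of Ndufa9 (-0.32, limma adjusted p = 0.016) was lost without Ire1 ko untreated replicate 2 (adjusted p = 0.0788), as was that of Ndufb5 (0.0604). That of Ndufs1 (-0.23, adjusted p = 0.0391) was lost without Ire1 ko untreated replicate 1 or 2 or Ire1 ko tunicamycin replicate 1, 2 or 4 (limma adjusted p between 0.0585 and 0.176).

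Both genotypes shared 45 of these lower members and the 2 higher ones. Among all genes of 200 or more, 47% were lower in WT and 35.7% in Ire1 ko. How many of them were lower in both was not counted, so the overlap is not set against that of other genes. Lower in Ire1 ko and not called in WT was 1 gene, Ndufb11, a membrane subunit of complex I. It read 1298, 1223, 1286 and 1289 in Ire1 ko after tunicamycin and 1412, 1518 and 1461 in Ire1 ko untreated, against 1665, 1455, 1452 and 1429 in WT after tunicamycin and 1448, 1534, 1475 and 1499 in WT untreated. The treated Ire1 ko arrays lay below every other array of the experiment, while the WT groups overlapped. Ndufa12 was not called in Ire1 ko (0.09 on the log2 scale), but its other bright probe set read 271, 300, 327 and 306 after tunicamycin and 517, 523 and 391 untreated in Ire1 ko, a difference of -0.65 without overlap. Called lower in WT and not in Ire1 ko, by the probe sets used, were 19 members, among them Atp5b, Sdha, Sdhb, Cox4i1, Cox5b, Ndufs3 and Ndufv1; that is no test of a difference between genotypes, which the interaction below gives.

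**Figure D3:**
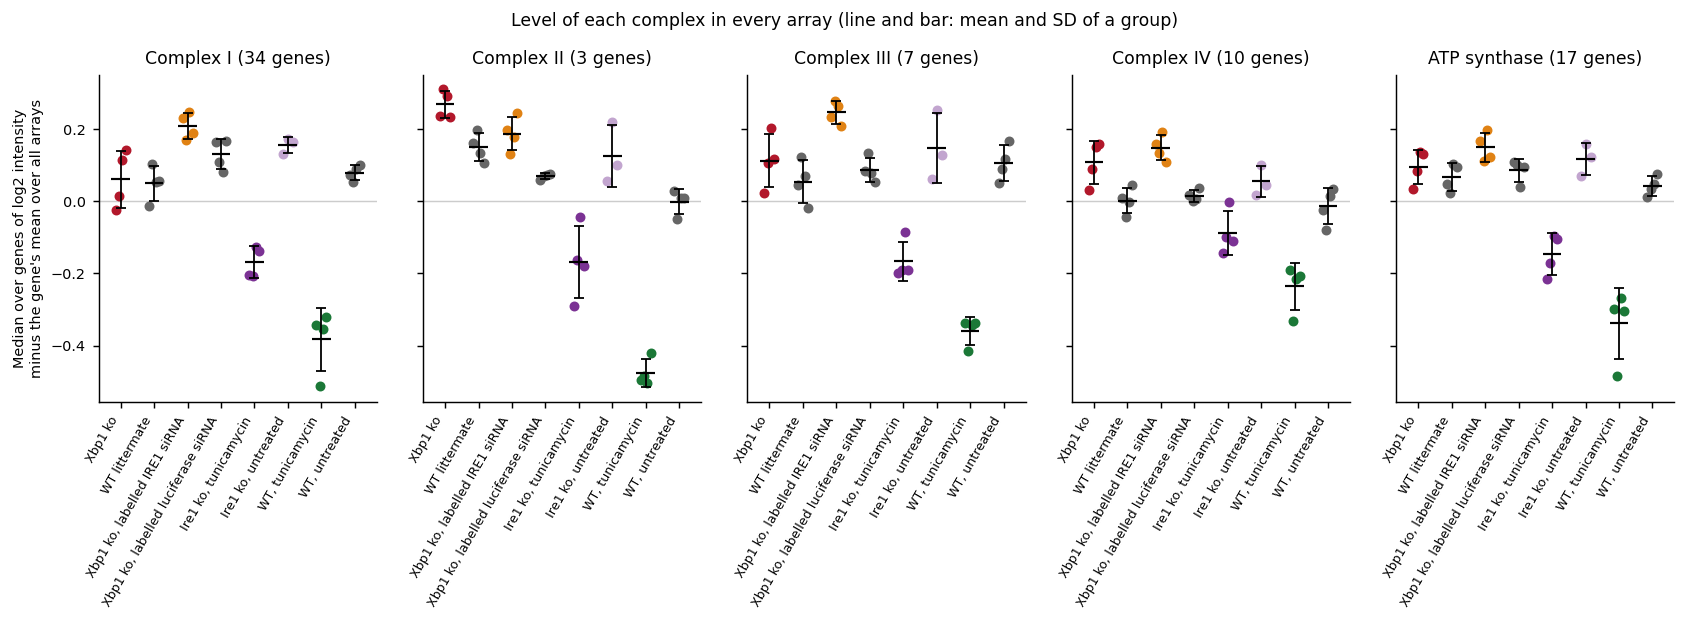
Level of each complex on every array in the 8 groups. The vertical axis is the median, over the members of a complex with a mean of 200 or more, of log2 intensity minus the gene's mean over all 31 arrays, and lines and bars are group means and SDs. For complex I the tunicamycin groups average -0.17 in Ire1 ko and -0.38 in WT, and the untreated groups 0.16 in Ire1 ko and 0.08 in WT.

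The level of each complex can be read per array as the median over its bright genes. Over all 71 bright members this level averaged -0.15 ± 0.05 in Ire1 ko after tunicamycin (n = 4), 0.12 ± 0.04 in Ire1 ko untreated (n = 3), -0.36 ± 0.08 in WT after tunicamycin (n = 4) and 0.05 ± 0.03 in WT untreated (n = 4; SD of log2 levels). All treated arrays were below all untreated ones, and all treated WT arrays were below all treated Ire1 ko arrays. In the other 4 groups the averages lay between 0.06 in WT littermates and 0.17 on the arrays labelled IRE1 siRNA. Other bright genes also differed between genotypes after tunicamycin. Among genes of 200 or more, the median log2 fold change of Ire1 ko over WT was 0.18 for the members and 0.15 for all genes. The gap between genotypes also depends on the scaling. With arrays scaled to the same median of their brighter probe sets, the members' median responses to tunicamycin lay closer together, as listed at the end.

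Ire1 ko livers were set against WT livers to find genes that depend on IRE1. Without tunicamycin, 0 of 79 members were called by limma, with 4 higher and 1 lower at an unadjusted p under 0.05, and 0.943% of all genes were called. The members' median log2 fold change was 0.07, against -0.03 for all genes tested. After tunicamycin, in a comparison that uses the same treated arrays as the responses above, 25 members were higher in Ire1 ko than in WT and 2 were lower. Of all genes tested 18.2% were called and 9.68% were called higher. Among genes of 200 or more 30.3% were higher, near the 35.2% of the members this bright, so this count is close to that of other bright genes. With arrays scaled to the same median of their brighter probe sets, 16 were higher and 2 lower, and Ndufa12, Ndufb2, Ndufb4, Ndufv2, Atp5a1, Atp5c1 and Atp5k were among those that lost the call (limma adjusted p between 0.0501 and 0.128). By complex, 15 of 35 complex I members were higher, 1 of 4 in complex II, 1 of 7 in complex III, 1 of 16 in complex IV and 7 of 17 in ATP synthase.

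**Figure D4:**
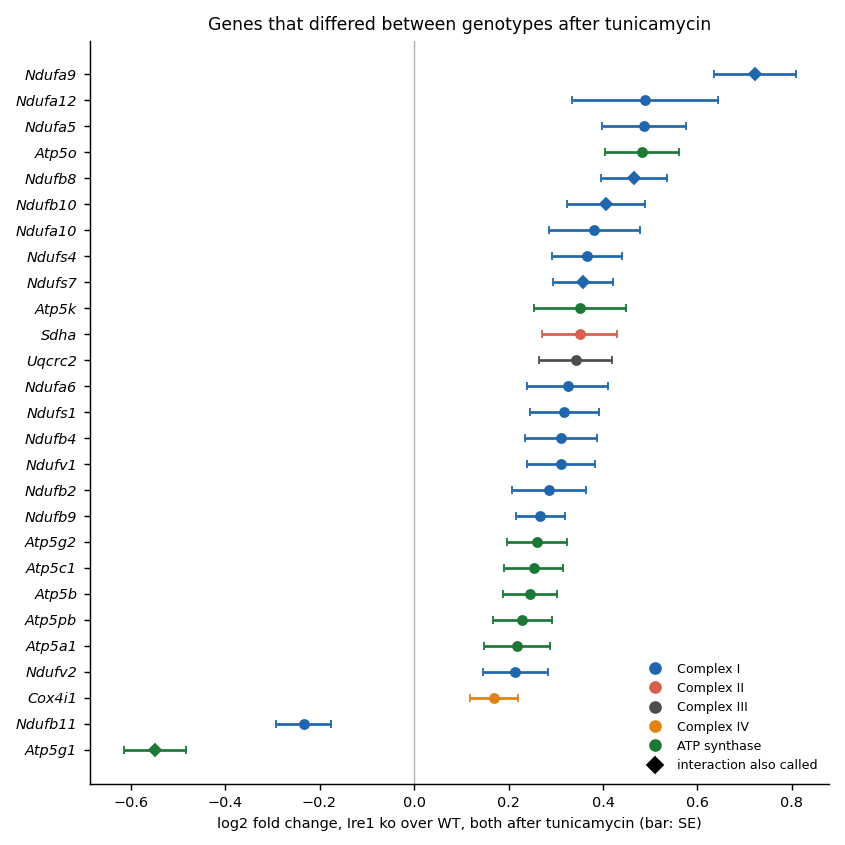
Log2 fold change, Ire1 ko over WT, both after tunicamycin (horizontal axis), of the 27 members that limma called, with SE as bars and the complex as colour. Diamonds mark genes whose interaction of genotype and tunicamycin was also called. The values run between -0.55 for Atp5g1 and 0.72 for Ndufa9, with 25 above 0 and 2 below.

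Ndufa9 showed the largest of these differences. It read 388, 443, 392 and 415 in Ire1 ko after tunicamycin and 224, 236, 259 and 276 in WT after tunicamycin. The groups were far apart, with a log2 fold change of 0.72 (SE 0.09; limma adjusted p = 1.27e-05). Untreated it read 494, 550 and 490 in Ire1 ko and 460, 438, 420 and 498 in WT, where the groups overlapped (0.17, limma adjusted p = 0.605). Atp5o was higher in Ire1 ko after tunicamycin by 0.48 (SE 0.08; limma adjusted p = 0.000258), Ndufb8, a membrane-arm subunit, by 0.47 and Ndufa5, a peripheral-arm subunit, by 0.49. Ndufb10 (0.41), Ndufa10 (0.38), Ndufs4 (0.37) and Ndufs7 (0.36) followed. Ndufa12, an accessory subunit, had a log2 fold change of 0.49 (SE 0.15; limma adjusted p = 0.0372), and its call was lost without WT tunicamycin replicate 1 or 2 or without any of the 4 Ire1 ko tunicamycin replicates (0.0586 to 0.132). Its other bright probe set gave 0.22 for this difference. Atp5a1 (0.22) kept its call in 1 of 8 such fits, without WT tunicamycin replicate 4 (otherwise limma adjusted p between 0.0555 and 0.125). Ndufv2 (0.21) lost it without WT tunicamycin replicate 1, 2 or 3 or Ire1 ko tunicamycin replicate 2, 3 or 4 (0.061 to 0.122). Atp5k (0.35) lost it without WT tunicamycin replicate 2 or 3 or Ire1 ko tunicamycin replicate 3 (0.055 to 0.062), and Ndufb2 (0.28) without Ire1 ko tunicamycin replicate 2 or 3 (0.0504 and 0.0519). The 2 lower members were Atp5g1, at -0.55 (SE 0.07; limma adjusted p = 1.44e-05), and Ndufb11, at -0.23 (SE 0.06; limma adjusted p = 0.00858). The call of Ndufb11 was lost when its 3 probe sets, all bright, were averaged (adjusted p = 0.0579, limma).

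Whether the response to tunicamycin differed between Ire1 ko and WT was tested as an interaction in the same fit. It was called for 5 of 79 members (6.33%), a share near the 7.54% of all genes tested. Among genes of 200 or more, the share called was lower for the members (7.04%) than for all genes (15.3%). The smaller fall in Ire1 ko was called for Ndufa9 (interaction 0.55 on the log2 scale, SE 0.13; limma adjusted p = 0.0132), Ndufb10 (0.43, SE 0.12; 0.0435), Ndufb8 (0.42, SE 0.10; 0.0182) and Ndufs7 (0.38, SE 0.09; 0.019), all of complex I. Ndufs7 read 764, 754, 758 and 762 in Ire1 ko after tunicamycin and 904, 950 and 977 untreated, against 593, 575, 643 and 562 in WT after tunicamycin and 941, 949, 1040 and 909 untreated. Ndufb8 read 612, 676, 668 and 645 in Ire1 ko after tunicamycin and 767, 885 and 778 untreated, against 499, 443, 463 and 479 in WT after tunicamycin and 747, 834, 790 and 769 untreated. For both genes the treated WT arrays were the lowest, the treated Ire1 ko arrays lay between, and the untreated arrays of the genotypes overlapped. Atp5g1 had an interaction of -0.61 (SE 0.10; limma adjusted p = 0.000765), the opposite sign. These 4 complex I calls ended when arrays were scaled to the same median of their brighter probe sets (limma adjusted p = 0.066, 0.241, 0.178 and 0.205 in the order named above), while that of Atp5g1 stayed. That of Ndufb10 was kept in 4 of 15 fits that left out 1 array each: without WT tunicamycin replicate 1 or 3, Ire1 ko untreated replicate 3 or Ire1 ko tunicamycin replicate 1 (otherwise 0.0577 to 0.0945). The median interaction was 0.11 for the members, 0.05 for all genes tested and 0.13 for all genes of 200 or more.

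Loss of Xbp1 touched few of these genes. In Xbp1 ko liver 2 of 78 tested members were higher and 2 lower than in WT littermates, 5.13% against 2.71% of all genes tested, and the members' median log2 fold change was 0.05. Among genes of 200 or more, the share called was lower for the members (5.63%) than for all genes (11%). Ndufa9 read 177, 145, 173 and 197 in Xbp1 ko and 474, 467, 444 and 441 in WT littermates. No array came near the other group, with means of 173 ± 21.4 and 456.5 ± 16.5 (SD, n = 4 each) and a log2 fold change of -1.41 (SE 0.09; limma adjusted p = 0.000192). Atp5d, the delta subunit of the central stalk, read 552, 563, 581 and 632 in Xbp1 ko and 859, 805, 801 and 846 in WT littermates. Its groups did not overlap either, with a log2 fold change of -0.51 (SE 0.06; limma adjusted p = 0.00231), and its other probe set gave -0.60. Both calls held in each of the 8 fits that left out 1 array. Sdha (0.20, SE 0.04; limma adjusted p = 0.0427) and Ndufc2 (0.29, SE 0.05; 0.0328), a complex I membrane subunit, were the higher ones. Sdha kept its call only without Xbp1 ko replicate 3 (otherwise limma adjusted p between 0.0597 and 0.115), and Ndufc2 only without WT littermate replicate 3 (otherwise 0.0521 to 0.0927). With arrays scaled to the same median of their brighter probe sets the split was 0 higher and 2 lower. With 1 array left out, 3 members were called without WT littermate replicate 3 or Xbp1 ko replicate 3, and 2 without WT littermate replicate 1, 2 or 4 or Xbp1 ko replicate 1, 2 or 4. Atp5o read 497, 447, 481 and 496 in Xbp1 ko and 539, 612, 543 and 578 in WT littermates, without overlap but not called (-0.24, SE 0.06; limma adjusted p = 0.1).

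On the arrays labelled IRE1 siRNA, all from Xbp1 ko mice, 2 of 78 members were higher and 3 lower than on those labelled luciferase siRNA, 6.41% against 1.8% of all genes tested. Among genes of 200 or more, 7.04% of the members were called and 6.49% of all genes, so these shares were close. Ern1 lay between 175 and 201 in Xbp1 ko mice without siRNA, within the range of the arrays labelled IRE1 siRNA, and if the labels were exchanged every direction in this comparison would turn. Ndufa9 read 181, 167, 142 and 194 on the arrays labelled IRE1 siRNA and 411, 446, 404 and 433 on those labelled luciferase siRNA. The groups stood far apart, with a log2 fold change of -1.32 (SE 0.10; limma adjusted p = 0.000726), and the call held in each of the 8 fits that left out 1 array. Atp5d read 698, 743, 697 and 826 on the arrays labelled IRE1 siRNA and 958, 1020, 943 and 925 on those labelled luciferase siRNA. Atp5o read 580, 539, 543 and 545 on the arrays labelled IRE1 siRNA and 666, 651, 668 and 628 on those labelled luciferase siRNA. Neither gene's groups overlapped, at -0.38 (SE 0.06; limma adjusted p = 0.03) for Atp5d and -0.24 (SE 0.04; 0.0205) for Atp5o. Atp5d kept its call only without IRE1 siRNA replicate 4 (otherwise 0.0554 to 0.0855), and Atp5o only without IRE1 siRNA replicate 1 or luciferase siRNA replicate 4 (otherwise limma adjusted p between 0.0532 and 0.0585). Uqcrq, a small complex III subunit, was higher by 0.27 (SE 0.04; limma adjusted p = 0.0246) and Ndufb5, of the complex I membrane arm, by 0.25 (SE 0.04; 0.0349). Ndufb5 kept its call only without luciferase siRNA replicate 4 (otherwise 0.0559 to 0.0957), and Uqcrq only without IRE1 siRNA replicate 1 or luciferase siRNA replicate 1 or 2 (otherwise 0.0587 to 0.069). With their 2 probe sets averaged, Ndufb5 and Atp5o lost their calls (limma adjusted p = 0.0898 and 0.0633). The split was 4 higher and 3 lower after quantile normalization and 0 higher and 3 lower with arrays scaled to the same median of their brighter probe sets. With IRE1 siRNA replicate 2 or 3 or luciferase siRNA replicate 3 left out, 1 member was called, with luciferase siRNA replicate 1 or 2 left out 2 were, and with IRE1 siRNA replicate 1 or 4 left out 3 were. The members' median was 0.09, against 0.04 for all genes tested.

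**Figure D5:**
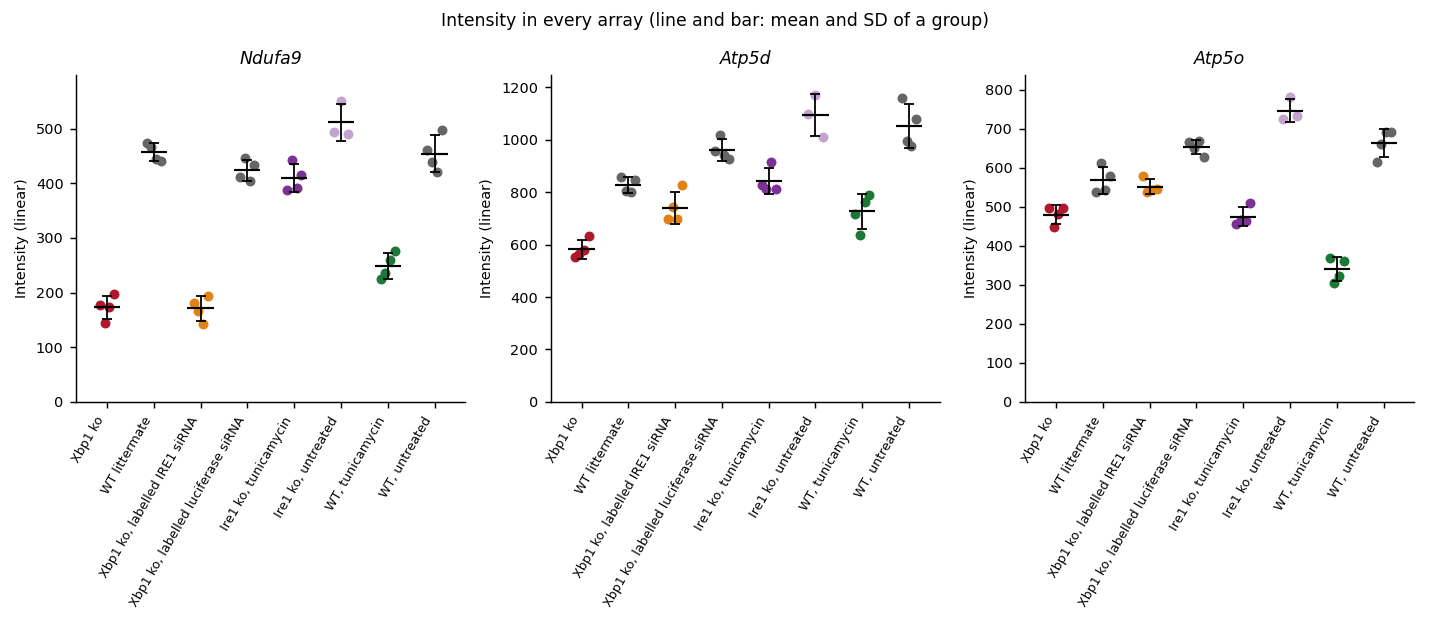
Linear intensity (vertical axes, from 0) of Ndufa9, Atp5d and Atp5o on every array of the 8 groups, with the mean and SD of each group as line and bar. Ndufa9 lies between 142 and 197 in Xbp1 ko and on the arrays labelled IRE1 siRNA, between 404 and 474 in WT littermates and on the arrays labelled luciferase siRNA, and between 224 and 276 in WT after tunicamycin.

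Ndufa9 was called in 5 of the 6 comparisons of groups, some of which share arrays, more often than any other member, and Atp5d and Atp5o in 4 each. Ndufa9 has 1 probe set, so no other probe set checks its values. Atp5d read 829, 814, 917 and 814 in Ire1 ko after tunicamycin and 1097, 1172 and 1011 untreated, against 718, 638, 762 and 789 in WT after tunicamycin and 1158, 997, 975 and 1078 untreated. In both genotypes the treated arrays were below the untreated ones, with log2 fold changes of -0.37 (SE 0.09; limma adjusted p = 0.004) in Ire1 ko and -0.53 (SE 0.08; limma adjusted p = 5.36e-05) in WT. After tunicamycin Atp5d was 0.22 higher in Ire1 ko than in WT on the log2 scale, which was not called (limma adjusted p = 0.0802) although the groups did not overlap. The other Atp5d probe set differed by 0.42, at 694 to 789 in Ire1 ko and 498 to 600 in WT. In all, 18 members were called in 3 or more of the 6 comparisons. How many of all genes were called this often was not counted. Among genes of 200 or more, 71.1% were called for tunicamycin in WT and 60.1% for tunicamycin in Ire1 ko. For Ire1 ko against WT after tunicamycin the share was 44.1%, and these comparisons share arrays. The 11 called in none were Cox4i2, Cox6a1, Cox7a1, Cox7b2, Cox7c, Cox8b, Cox8c, Ndufa2, Ndufa8, Ndufab1 and Uqcrb.

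Several complex IV subunits exist as isoforms of different tissues. The forms known from liver were bright on every array: Cox4i1 lay between 1391 and 1833, Cox6a1 between 3151 and 4036, Cox6b1 between 1253 and 2048, Cox7a2 between 1160 and 1931 and Cox8a between 478 and 860. Their counterparts known from lung, heart, muscle or testis were at or near the floor: Cox4i2 at 4 to 5, Cox6a2 at 4 to 14, Cox6b2 at 5 to 26, Cox7a1 at 4 to 6, Cox7b2 at 4, Cox8b at 4 to 6 and Cox8c at 5 to 7. Ndufa4 lay between 950 and 1747, and its hypoxia-induced paralog Ndufa4l2 between 4 and 6. The c subunit genes of ATP synthase all were bright, Atp5g1 at 623 to 1298, Atp5g2 at 630 to 860 and Atp5g3 at 1953 to 2894. Of 39 members with more than 1 probe set, 32 had another probe set with a mean of 16 or more, and 39 of these 41 further probe sets had the sign of the one used for the response of WT to tunicamycin.

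Genes that work with the complexes moved both ways after tunicamycin. Of all genes tested, 17.3% were called higher and 10.3% lower in Ire1 ko, and 18.5% higher and 17.7% lower in WT. The list of electron carriers and partners also holds Dmac1 and Dmac2, which help to assemble complex I. Of its 10 tested genes, 0 were higher and 3 lower in Ire1 ko, with Dmac2 among the latter. In WT 1 was higher and 6 lower. The higher one was Cycs, cytochrome c, by 0.78 (SE 0.07; limma adjusted p = 1.08e-07) in WT, with an interaction of -0.58 (SE 0.10; limma adjusted p = 0.00132). Atpif1, the inhibitor of ATP hydrolysis by ATP synthase, had log2 fold changes of -0.59 in Ire1 ko and -0.93 in WT, both called lower. Cyc1, the cytochrome c1 of complex III, was lower at -0.42 in WT. Of 41 assembly factors, 6 were higher and 7 lower in Ire1 ko and 5 higher and 15 lower in WT. Coa6 (copper delivery to complex IV) had log2 fold changes of -1.09 in Ire1 ko and -1.66 in WT. Sdhaf4 (assembly of complex II) had -1.09 in Ire1 ko and -1.61 in WT, and Pet100 (complex IV) had -1.12 in Ire1 ko and -1.28 in WT. All 6 of these values were called lower.

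Of 18 regulators of mitochondrial gene expression, 11 were higher and 2 lower in Ire1 ko and 9 higher and 4 lower in WT. Tfb1m, a methyltransferase of mitochondrial ribosomal RNA, rose by 1.10 in Ire1 ko and by 2.71 in WT, and its interaction was -1.61 (SE 0.24; limma adjusted p = 0.000495). The coactivator Pprc1 rose by 2.72 in Ire1 ko and by 2.19 in WT. Ppargc1b, the coactivator PGC-1beta, had log2 fold changes of -1.87 in Ire1 ko and -2.96 in WT, both called lower. Of the transcription factors named above, Gabpa (0.85) and Yy1 (0.78) were called higher in Ire1 ko and Esrra (-0.77) lower. Nrf1 (0.36) and Esrrg (-0.10) were not called there. In the list for the TCA cycle, which feeds the chain with NADH and succinate, 3 were higher and 8 lower of 17 in Ire1 ko. In WT 3 were higher and 9 lower. This list also holds Pdha1, Pdhb, Dlat and Pdhx of the pyruvate dehydrogenase complex, and Pcx, pyruvate carboxylase. Pdhb rose by 1.25 and Cs, citrate synthase, by 1.40 in Ire1 ko, and by 1.58 and 1.21 in WT. Dlst, of the 2-oxoglutarate dehydrogenase complex, had -0.66 in Ire1 ko and -1.04 in WT, both called lower. The lists' medians in WT were -0.33 for carriers, -0.26 for assembly factors, 0.41 for regulators and -0.23 for the TCA cycle, against -0.02 for all genes tested. Without tunicamycin these lists gave 1 call in Xbp1 ko (Cox19, higher), 2 on the arrays labelled IRE1 siRNA (Ndufaf5 lower, Pdhb higher) and 0 in untreated Ire1 ko.

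Markers of liver cell types also moved with tunicamycin. The shares for all genes tested were 17.3% higher and 10.3% lower in Ire1 ko, and 18.5% higher and 17.7% lower in WT. Of 13 hepatocyte markers, 2 were higher and 2 lower in Ire1 ko, and 1 was higher and 8 lower in WT. Their sum lay between 55444 and 59485 after tunicamycin and between 55093 and 63169 untreated in Ire1 ko, and between 52888 and 53776 after tunicamycin and between 57819 and 61396 untreated in WT. Of 8 Kupffer cell markers, 0 were called in Ire1 ko and 3 were lower in WT, where their sum lay between 391 and 538 after tunicamycin and between 599 and 1204 untreated. Of 8 endothelial markers, 1 was lower in Ire1 ko, and 1 was higher and 3 lower in WT. Of 8 tested stellate and fibroblast markers, 1 was lower in Ire1 ko (Col3a1, -1.004) and 2 in WT (Col3a1, -1.36, and Acta2, -0.92). The sum of the 9 on the array lay between 617 and 858 after tunicamycin and between 546 and 901 untreated in Ire1 ko, and between 493 and 656 after tunicamycin and between 507 and 685 untreated in WT. Among these markers, the interaction of genotype and tunicamycin was called for Hnf4a alone, a hepatocyte marker (0.58, SE 0.12; limma adjusted p = 0.00803). Unlike calls in Ire1 ko and WT are thus no test of a difference between genotypes. The part of these cell types in the changes of the respiratory chain genes was not tested.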

How the data were processed

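Total liver RNA was measured on a mouse Affymetrix array with perfect-match probes alone. Per the submitters' processing notes, the authors used RMA and the affy package, with versions not given in the sources used here. The deposited unit was linear probe set intensity in whole numbers, and log2 of it was taken before any test. The rounding limits precision near the floor, and the number of arrays limits it elsewhere. The array annotation gave 1 symbol to 28898 probe sets and several to 551, and 15588 had no entry. All 80 members were found in the RefSeq gene table. Arrays were grouped by their labels, and 0 columns stayed unmapped.

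The tests used limma 3.58.1 under R 4.3.3 (functions lmFit and eBayes, with an intensity trend), two-sided, in 3 fits: Xbp1 ko with WT littermates (8 arrays), the siRNA arrays (8) and the Ire1 experiment (15 arrays, 4 groups, with the interaction). A gene entered a fit when its probe set lay above percentile 30 of the array on 3 or more of that fit's arrays. The Benjamini-Hochberg adjustment ran over every gene tested, and the threshold was 0.05. The fits were tested on simulated data. Arrays were not paired by replicate number in these fits. Deviations from group means correlated above 0.1 in 6 of 21 same-numbered pairs of the Ire1 experiment. They did so in 2 of 4 of the Xbp1 comparison and 0 of 4 of the siRNA comparison. In the Xbp1 comparison these correlations lay between 0.0145 and 0.262, and so few pairs cannot exclude a pairing.

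The members named were, per comparison, up to 8 with the highest and up to 8 with the lowest called fold change, those called in 3 or more comparisons, the brightest 2 and the dimmest of each complex, tissue isoforms, symbols that are not subunits, and members whose probe sets gave called changes of opposite sign. A few others (core subunits, Uqcrc1, Uqcrfs1, Cox5a and the like) were named for their role after their values were seen. The members and gene lists were chosen with earlier results of these data known. Alternatives were the normalization, the filter, the probe set rule, the intensity trend, the replicate block and each array left out. Promoters came from RefSeq on GRCm38.p6.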

Additional observations from a re-analysis of the deposited data

Results flagged for a closer look

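Single arrays stood apart from the other 3 of their group, by the gap to the nearest array relative to the range of the group (Dixon's criterion), in 19 of 249 groups of 4 values examined. Chance gives about 1 in 20. In WT after tunicamycin the arrays apart were at 1665 for Ndufb11 (others 1429 to 1455), 664 for Ndufv2 (others 585 to 595), 868 for Ndufv3 (others 1189 to 1212) and 563 for Uqcrq (others 686 to 700). Complex levels in that group stood apart at -0.42 for complex III (others -0.34) and -0.48 for ATP synthase (others -0.30 to -0.27). In Ire1 ko after tunicamycin they were at 917 for Atp5d (others 814 to 829), 724 for Ndufa12 (others 774 to 783), 1223 for Ndufb11 (others 1286 to 1298) and -0.086 for the level of complex III (others -0.20 to -0.19). In untreated WT they were at 1502 for Atp5a1 (others 1673 to 1705) and 597 for Ndufa12 (others 838 to 868). In Xbp1 ko they were at 1585 for Atp5c1 (others 1678 to 1697), 323 for Ndufb10 (others 379 to 389) and 912 for Uqcrq (others 952 to 958). In WT littermates of Xbp1 ko they were at 208 for Cox7a2l (others 262 to 274) and 1639 for Ndufv3 (others 1510 to 1524). The siRNA arrays apart were at 580 for Atp5o among those labelled IRE1 siRNA (others 539 to 545) and 1885 for Atp5a1 among those labelled luciferase siRNA (others 1781 to 1796).

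The response to tunicamycin differed between Ire1 ko and WT, by the interaction in limma, for Atp5g1 (-0.61), Ndufa9 (0.55), Ndufb10 (0.43), Ndufb8 (0.42) and Ndufs7 (0.38). Of these 5 calls only that of Atp5g1 held with arrays scaled to the same median of their brighter probe sets, and that of Ndufb10 held in 4 of 15 fits that left out 1 array.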

How the results depend on the processing

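Counts of called members kept within 1.5 times of those reported under all alternatives but these. Xbp1 ko gave 2 (0 higher, 2 lower) when arrays were scaled to the same median of their brighter probe sets (common median) and 2 with the replicate block, in place of 4. The siRNA arrays gave 3 with a common median, 3 with all probe sets of a gene averaged and 1 with the replicate block, in place of 5. The interaction gave 1 with a common median, in place of 5. The cause was not tested, except that averaging takes in probe sets at the floor, which shrinks a fold change by construction (Uqcrq has 3 of mean 4.49 to 5.49, and Ndufs4, Ndufa10, Ndufa12, Ndufb8 and Sdha also have some below 16). The replicate block gave 0 in untreated Ire1 ko, 27 in Ire1 ko after tunicamycin, 47 for tunicamycin in Ire1 ko, 66 for tunicamycin in WT and 4 for the interaction. With 1 array left out, counts lay between 2 and 3 for Xbp1 ko, 1 and 5 for siRNA, 0 and 0 for untreated Ire1 ko, 22 and 29 for Ire1 ko after tunicamycin, 40 and 52 for tunicamycin in Ire1 ko, 63 and 67 for tunicamycin in WT, and 4 and 5 for the interaction. The common median moved the median of all genes for tunicamycin to -0.18 in Ire1 ko and -0.11 in WT, where the members' medians were -0.44 and -0.48, and left 16 higher and 2 lower in Ire1 ko after tunicamycin. Of 97 fold changes of named members, 1457 alternative values kept direction and call in 1328 cases, lost the call in 123, gained it in 3 and changed sign in 3. The sign changes were all of Cox7a2l in comparisons where it was not called: 0.0025 for siRNA without IRE1 siRNA replicate 2 (range with 1 array left out -0.14 to 0.0025), 0.014 for untreated Ire1 ko with a common median, and -0.042 for Ire1 ko after tunicamycin without WT tunicamycin replicate 4 (range -0.042 to 0.11). For 9 dim members signal over background limits every value.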
